A study of Homo sapiens with 42 samples.

Results

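The 34 genes described here encode the glycolytic enzymes, the glucose and lactate carriers that serve them, the enzymes that set their pace and 4 enzymes of the pentose phosphate pathway. They were chosen by name, as the rows of the count table whose gene name equals a member, from 57353 gene names in all. Of the 34, 33 passed the filter on low counts (means over all libraries of at least 1 count and 1 CPM, where CPM are counts scaled to a common library size) and were tested among 12939 genes. The member that did not pass was PFKFB2, a heart and kidney form of the bifunctional enzyme described below, with 0 to 5 counts in a library.

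The samples were cultures of MOLM-13, an established line of human acute myeloid leukemia (AML) with a FLT3 internal tandem duplication, which keeps that receptor kinase active, and with a KMT2A::MLLT3 fusion. All cultures were treated for 12 h. In RPMI medium the cells received vehicle, quizartinib at 3 nM (a FLT3 inhibitor, labelled AC220) or quizartinib at 3 nM with everolimus at 10 nM (an inhibitor of mTORC1; this pair is called combo). In hBMSC-CM, they received vehicle, quizartinib, everolimus at 10 nM or combo at the same doses. hBMSC-CM is medium on which HS-5 cells, a line of human marrow stroma, had grown, filtered and mixed in equal parts with fresh medium. RPMI with everolimus as the sole drug was not analysed here. Each of the 21 cultures (7 conditions, 3 replicates each) gave an input library of total poly(A) RNA and a library of the heavy polysome fraction of a sucrose gradient, which makes 42 libraries. Since all cultures are of 1 cell line and the labels do not say how the replicates were separated, p-values measure the spread between these cultures.

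Glycolysis splits glucose into pyruvate in the cytosol, and leukemia cells that grow fast pass much of that pyruvate on to lactate. Glucose enters through the SLC2A transporters, is phosphorylated by hexokinases, is committed at phosphofructokinase and leaves as lactate through the SLC16A carriers. The PFKFB enzymes make and remove fructose 2,6-bisphosphate, an activator of phosphofructokinase, TIGAR removes it, and the PDK kinases hold pyruvate back from the mitochondria by inhibiting pyruvate dehydrogenase. The pentose phosphate pathway branches off at glucose 6-phosphate and yields NADPH and ribose 5-phosphate for nucleotides.

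SLC2A3 (the neuronal-type glucose transporter GLUT3) and SLC2A14 (its duplicate, GLUT14) are shown first, because the members' widest changes were theirs and their reads are hard to part. Both lie on the minus strand of chromosome 12 (GRCh38, GENCODE release 44), SLC2A14 from 7812512 to 7891148 and SLC2A3 from 7919230 to 8019007. Their coding sequences matched at 1440 of 1488 aligned bases (96.8%). Of the 50-base words in the canonical SLC2A14 transcript, 26.8% also occurred in other genes' transcripts, nearly all in SLC2A3, and 24.7% of the words of SLC2A3 occurred elsewhere. Of all ungapped stretches of 90 aligned coding bases, the one with the most differences is shown, so other stretches are at least as close. It spans 522 to 611 of SLC2A3 and 525 to 614 of SLC2A14, counted from the start codon, with the 8 differing bases in capitals:
SLC2A3: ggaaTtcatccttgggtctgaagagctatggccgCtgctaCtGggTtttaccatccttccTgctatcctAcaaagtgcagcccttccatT
SLC2A14: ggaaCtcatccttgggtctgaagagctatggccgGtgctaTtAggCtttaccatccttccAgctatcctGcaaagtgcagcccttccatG
Even over that stretch 82 of 90 bases were identical, so a read from the coding sequence is told apart by few positions at most. The counts of both genes are uncertain by what the counting did with such reads.

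Other members share sequence too, and their levels are given as uncertain. ALDOA shared 89.5% of its words with an overlapping gene model (ENSG00000285043) and held 2.26 to 16.2 CPM in input, while that model held up to 2.44 CPM in a library. LDHB shared 73.1% of its words, most with a readthrough model (ENSG00000285854) that had at most 1 count. Since the handling of shared reads is not given, a low count of such a model does not show how few reads the member lost. PGAM1 shared 56.8%, mainly with a processed pseudogene (ENSG00000186076) at 0.601 to 23.5 CPM. TPI1 shared 27.3%, TIGAR 21.5%, GAPDH 20.4%, GPI 15.1% and LDHA 12.2%, and for the other members the share was under 10%. The counting's strand setting is not given in the sources used here, so reads of a member and of an antisense partner (as at SLC16A1, ENO1 and PDK1) could not be told apart.

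Total counts were 19439370 to 37161265 in input and 21459383 to 38786394 in polysome libraries, of which members took 0.716% to 3.42%. Of 10 marker genes of this leukemia, 9 had counts in every library, among them FLT3, CD33 and MEIS1, while ANPEP was at 0 in 25 of 42. Of 10 stromal fibroblast markers, COL3A1, LUM and POSTN were at 0 in all 42 libraries, and the summed stromal list ran from 0.778 to 4.16 CPM in RPMI vehicle input and from 8.91 to 35.2 CPM in RPMI quizartinib input, and from 1.21 to 3.35 CPM and from 5.27 to 19.5 CPM in the same groups of hBMSC-CM. That list was thus higher under quizartinib in both media, mostly through COL1A1, and its part in the results was not tested. The 3 everolimus cultures stood apart by being unusually alike: the chi-square of counts between a pair of replicates was 4.96 to 7.51 per degree of freedom in everolimus input, against 30.2 to 224 in the other input groups. They still differed by more than sampling noise and were kept as 3 samples, but the labels do not say whether they were separate cultures. The spread within that group, and in part the p-values for everolimus alone, may thus be technical. In the main fit each gene's spread was estimated over all groups together, so these libraries also entered the p-values of the other comparisons. Fits of the compared libraries alone left them out of comparisons without that group, but together with other libraries. Their own part in those p-values was therefore not tested.

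Per kilobase of canonical transcript, the input levels in RPMI vehicle spread over several orders of magnitude. Which transcripts these cells use was not examined, and a long canonical transcript, as for PDK1 (14072 bases), lowers the value. GAPDH, which oxidizes glyceraldehyde 3-phosphate, stood at 2815 ± 90.2 CPM per kb (SD, n = 3), and ENO1, the main enolase, at 1987 ± 143. PKM (pyruvate kinase, 586 ± 72.98) and TPI1 (triose phosphate isomerase, 535 ± 28.95) came next, with ranges of 1 SD that overlapped. TALDO1 (transaldolase, 397 ± 59.01) and TKT (transketolase, 329.8 ± 33.04) of the pentose phosphate pathway overlapped in the same way. LDHA, the lactate dehydrogenase subunit that favours lactate, followed at 242 ± 17.6. At the low end stood HK3 at 1.02 ± 0.449, TIGAR at 0.750 ± 0.0593, PDK1 at 0.703 ± 0.0715, SLC2A14 at 0.696 ± 0.159 and PFKM (the muscle phosphofructokinase) at 0.350 ± 0.135 CPM per kb, and of these TIGAR, PDK1 and SLC2A14 overlapped.

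**Figure D1:**
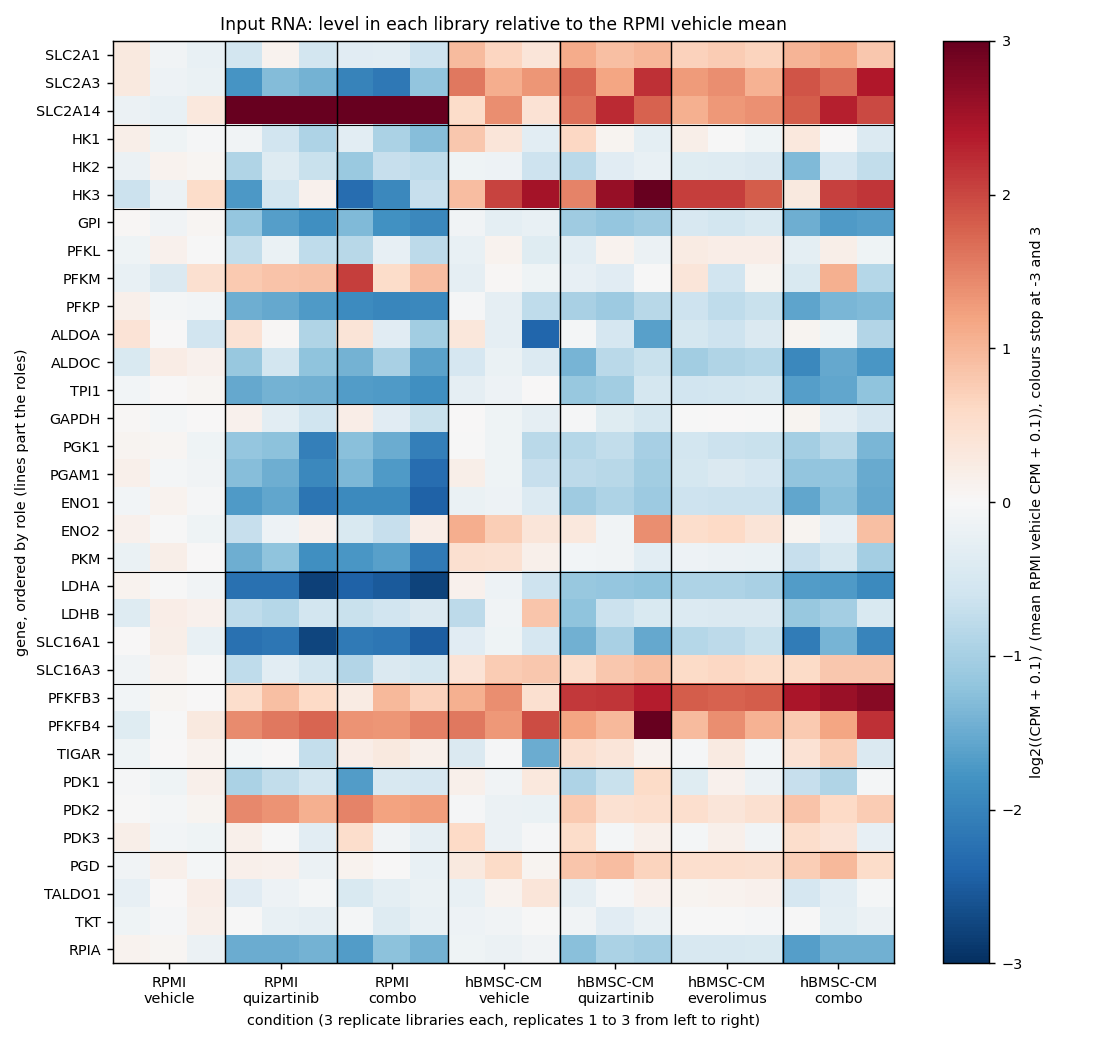
Heat map of the input level of each tested member (rows, ordered by role) in each of the 21 input libraries (columns), as log2 of the ratio to the mean of RPMI vehicle with 0.1 CPM added to both. LDHA and SLC16A1 are dark blue under quizartinib and combo in RPMI and paler in hBMSC-CM, SLC2A14 is red in both RPMI drug groups, and SLC2A3, HK3 and PFKFB3 are red in all hBMSC-CM groups except that replicate 1 of HK3 is pale under combo.

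Quizartinib in RPMI addresses what FLT3 inhibition does to these messages without stromal factors. In input RNA, 11 of the 33 members fell and 4 rose, and the median member changed by -0.54 on the log2 scale against 0.080 for all 12939 genes. Over all genes 18% fell and 16.6% rose, so the members' share that fell (33.3%) lay above the background and the share that rose (12.1%) did not. Of the 11 that fell, 3 were among the 7 upper enzymes, 4 among the 6 lower enzymes, 2 among the 4 lactate genes, 1 among the 3 glucose transporters and 1 among the 4 pentose phosphate genes, and none of the 3 hexokinases passed the test. In bulk RNA, fewer cells that hold a message and less of it in each cell cannot be told apart.

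LDHA read 583, 539 and 504 CPM in the 3 RPMI vehicle cultures and 115, 114 and 77.3 CPM under quizartinib. The groups lay far apart, and the fitted level was 5.30-fold lower (log2 change -2.41 ± 0.23 SE, adjusted p = 4.14e-10). SLC16A1, the lactate and pyruvate carrier MCT1, read 89.9, 102 and 77.4 CPM against 19.1, 19.8 and 13.1 CPM. It was 5.17-fold lower with no overlap (log2 change -2.37 ± 0.30 SE, adjusted p = 1.1e-07). ENO1 read 3334, 3824 and 3461 CPM against 1083, 1201 and 771 CPM. This message, among the most abundant of the set, was 3.48-fold lower (log2 change -1.80 ± 0.21 SE, adjusted p = 2.16e-08). PKM, which makes pyruvate, read 1181, 1518 and 1356 CPM against 493, 583 and 380.2 CPM (log2 change -1.48 ± 0.25 SE, adjusted p = 1.58e-05). PGK1, phosphoglycerate kinase, read 392, 385 and 339 CPM against 167, 159 and 89.9 CPM (log2 change -1.42 ± 0.27 SE, adjusted p = 6.22e-05). PFKP, the platelet phosphofructokinase, read 151, 131 and 129 CPM against 49.3, 47.5 and 42.4 CPM (log2 change -1.56 ± 0.23 SE, adjusted p = 1.39e-06). None of these 3 had overlapping groups. The other falls of the set were GPI (-1.52), PGAM1 (-1.54), RPIA (-1.47), TPI1 (-1.46) and SLC2A3, which is described with the transporters, again without overlap.

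The promoters of 3 of these falling genes are shown as examples and do not stand for the others. They are the 250 bases before a RefSeq transcription start (GRCh38.p14), read in the gene's direction, with the letters searched in either direction in capitals. These were CACGTG, the E-box bound by MYC and others, and the core of the hypoxia response element in both its forms, ACGTG as well as the form GCGTG:
LDHA, chr11:18394313-18394562, plus strand: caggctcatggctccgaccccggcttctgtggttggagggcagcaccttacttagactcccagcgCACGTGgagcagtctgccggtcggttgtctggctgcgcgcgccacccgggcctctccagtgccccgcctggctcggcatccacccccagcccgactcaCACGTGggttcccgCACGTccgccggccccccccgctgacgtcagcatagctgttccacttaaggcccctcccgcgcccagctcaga
PGK1, chrX:78103998-78104247, plus strand: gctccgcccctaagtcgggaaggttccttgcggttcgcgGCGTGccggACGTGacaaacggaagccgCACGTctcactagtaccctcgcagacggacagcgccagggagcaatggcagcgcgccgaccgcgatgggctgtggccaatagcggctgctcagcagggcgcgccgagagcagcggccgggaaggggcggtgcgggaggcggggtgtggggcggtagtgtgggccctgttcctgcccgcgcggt
ENO1, chr1:8878687-8878936, minus strand: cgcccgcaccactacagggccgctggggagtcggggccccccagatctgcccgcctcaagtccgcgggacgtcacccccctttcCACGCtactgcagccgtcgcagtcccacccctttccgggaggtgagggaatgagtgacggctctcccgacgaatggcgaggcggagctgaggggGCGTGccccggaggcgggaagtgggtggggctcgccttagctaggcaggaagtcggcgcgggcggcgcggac
The LDHA stretch, 1 of the gene's 2 listed starts, holds the E-box 2 times and ACGTG 5 times over both strands, since each E-box holds it on both. The PGK1 stretch holds ACGTG 2 times and GCGTG 1 time, and the ENO1 stretch holds GCGTG 2 times. Over all 59 listed starts of the 31 members that have one, the E-box occurred in 11.9% of stretches against 6.34% of 35116 stretches genome-wide, ACGTG in 37.3% against 18.5% and GCGTG in 30.5% against 32.2%. The 7 members with an E-box were ALDOA, ALDOC, GAPDH, HK2, LDHA, PDK2 and PFKFB3. Of these LDHA alone was called lower under quizartinib in RPMI, and PDK2 and PFKFB3 were called higher. The other LDHA start held no E-box and no ACGTG, and the listed starts of PKM and PGAM1, which also fell, held none of the letters searched. A match is a description of the letters and not a binding site, and these members were chosen with their results known.

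The glucose transporters did not move as a group. SLC2A1 (GLUT1), the widespread glucose transporter, read 31.9, 24.2 and 22.5 CPM in RPMI vehicle and 17.9, 28.2 and 17.8 CPM under quizartinib, with overlapping groups and an adjusted p of 0.278. SLC2A3 read 39.6, 29.3 and 28.3 CPM against 9.49, 13.1 and 12.1 CPM. It was 2.80-fold lower (log2 change -1.49 ± 0.32 SE, adjusted p = 0.000417), with no overlap. SLC2A14 read 2.12, 2.07 and 3.04 CPM against 21.8, 26.9 and 26.6 CPM. It was 10.4-fold higher (log2 change 3.38 ± 0.32 SE, adjusted p = 4.45e-10), the widest rise of any member. Summed over both genes, the levels were 41.7, 31.4 and 31.4 CPM in vehicle and 31.3, 40.02 and 38.7 CPM under quizartinib. The summed levels overlapped, so the fall of the former and the rise of the latter were of like size in CPM. In hBMSC-CM the sums were 100, 75.0 and 84.3 CPM in vehicle and 116, 85.1 and 156 CPM under quizartinib, which also overlapped. In both groups every sum of hBMSC-CM lay above every sum of RPMI. These sums were formed after the values were seen and have no test.

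Of the 6 tested regulators of glycolysis and of pyruvate dehydrogenase 3 rose, beside 16.6% of all genes, and none passed the test as lower, beside 18%. PFKFB3, the inducible maker of fructose 2,6-bisphosphate, read 32.7, 35.8 and 34.6 CPM against 49.7, 64.8 and 51.8 CPM (log2 change 0.69 ± 0.20 SE, adjusted p = 0.00736). Without RPMI quizartinib replicate 2 its change was 0.56 (adjusted p = 0.058). PFKFB4, its relative, read 3.43, 4.45 and 5.48 CPM against 11.98, 13.5 and 15.2 CPM (log2 change 1.61 ± 0.42 SE, adjusted p = 0.00307). PDK2, a pyruvate dehydrogenase kinase, read 20.4, 19.9 and 21.7 CPM against 56, 53.1 and 43.7 CPM (log2 change 1.30 ± 0.21 SE, adjusted p = 8.19e-06). All 3 were higher in every quizartinib culture than in any vehicle culture. TIGAR read 5.66, 6.17 and 6.63 CPM against 5.90, 6.22 and 3.68 CPM, and PDK1, another kinase of the family, 9.67, 9.02 and 10.99 CPM against 5.07, 5.87 and 6.71 CPM. TIGAR overlapped between groups (adjusted p = 0.596), and PDK1 was lower in every quizartinib culture but did not pass the test (adjusted p = 0.177); with the replicate block within each fraction it was called lower.

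Among the members that did not pass in RPMI, HK2, the inducible hexokinase, read 70.9, 87.01 and 83.8 CPM against 42.9, 61.9 and 50.8 CPM, and ALDOC, an aldolase, 52.1, 83.2 and 78.6 CPM against 32.3, 48.9 and 30.8 CPM. Both were lower in every quizartinib culture (adjusted p = 0.192 and 0.094). LDHB, the other lactate dehydrogenase subunit, read 20.4, 30.8 and 29.3 CPM against 15.9, 14.7 and 18.2 CPM (adjusted p = 0.0968). TKT read 904, 963 and 1097 CPM against 984, 848 and 825 CPM, with a log2 change of -0.16. Of the pentose phosphate genes RPIA fell, a ribose 5-phosphate isomerase at 44.5, 42.6 and 36.4 CPM against 14.6, 14.6 and 15.5 CPM, while PGD, TALDO1 and TKT had log2 changes of 0.05, -0.18 and -0.16. The others that did not pass were HK1 (-0.50), HK3 (-0.55), PFKL (-0.54), ALDOA (-0.05), GAPDH (-0.23), the neuronal enolase ENO2 (-0.21), SLC16A3 (-0.53), PDK3 (-0.05) and PFKM (0.90), and PFKM alone among these was higher in every quizartinib culture.

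With the replicate number as a block within each fraction, 22 members were called instead of 15 (4 up, 18 down) beside 48.9% of all genes (24.6% up, 24.4% down). HK1, HK2, PFKL, ALDOC, LDHB, SLC16A3 and PDK1 then fell as well, with HK2 at -0.64 ± 0.23 (SE, adjusted p = 0.0203), ALDOC at -0.93 ± 0.23 (SE, adjusted p = 0.000924), LDHB at -0.71 ± 0.23 (SE, adjusted p = 0.00905) and PDK1 at -0.76 ± 0.31 (SE, adjusted p = 0.0364) on the log2 scale.

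**Figure D2:**
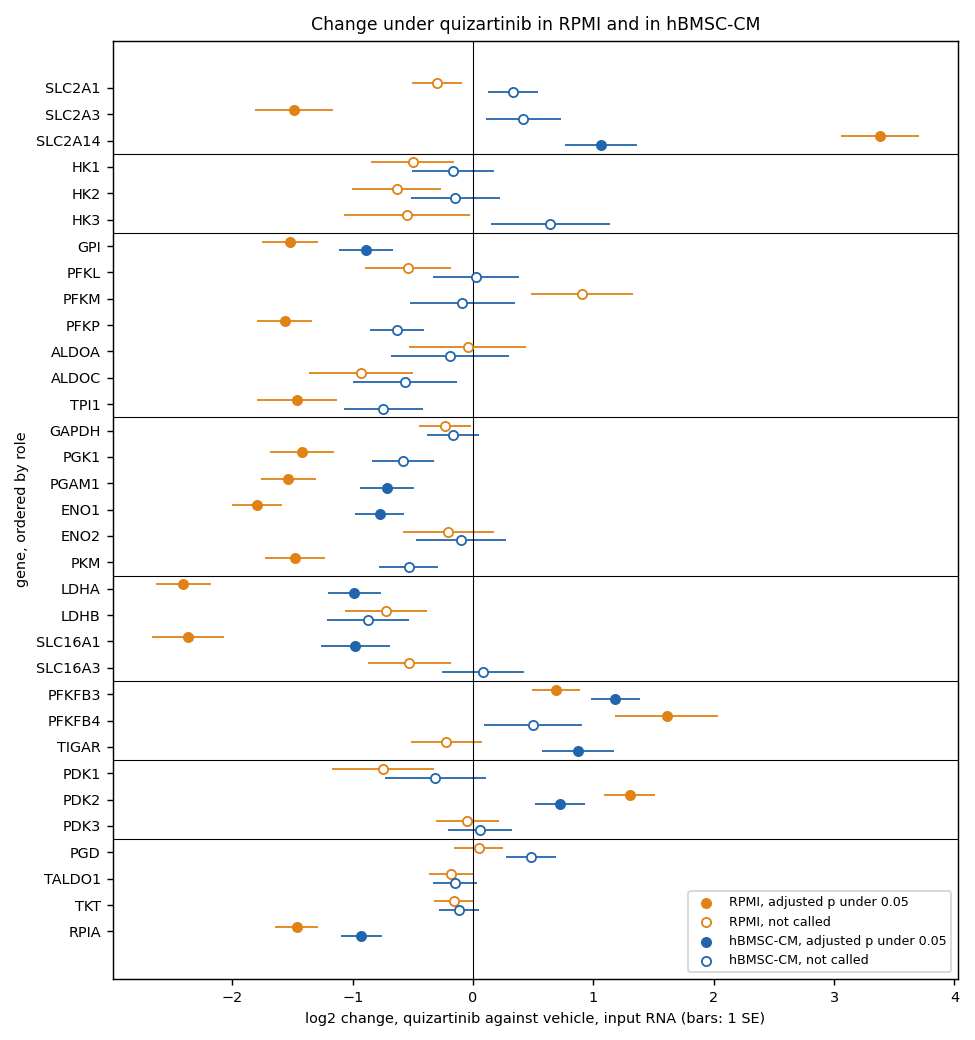
Log2 change of each tested member under quizartinib against vehicle in input RNA, in RPMI (orange) and in hBMSC-CM (blue), with bars of 1 standard error and filled points where the adjusted p was under 0.05. The orange points of the 11 members that fell in RPMI lie left of the blue ones, with LDHA at -2.41 and -0.99, while SLC2A3 lies on opposite sides of 0.

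In hBMSC-CM, where the question is how stromal factors alter the response, 6 members fell under quizartinib and 4 rose. The median member changed by -0.15 against 0.010 for all genes, of which 6.84% fell and 5.46% rose. LDHA read 589, 489 and 353 CPM under vehicle and 246, 241 and 235 CPM under quizartinib. It was 1.98-fold lower without overlap (log2 change -0.99 ± 0.22 SE, adjusted p = 0.00279). SLC16A1 read 70.8, 81.9 and 62.8 CPM against 32.7, 45.7 and 30.9 CPM (log2 change -0.98 ± 0.29 SE, adjusted p = 0.0221). RPIA read 37.5, 36.2 and 38.2 CPM against 17.2, 21.3 and 20.3 CPM (log2 change -0.93 ± 0.17 SE, adjusted p = 0.000495). These 3 had the largest falls of the called members here, and GPI (-0.89), ENO1 (-0.78) and PGAM1 (-0.71) were the others. PFKFB3 read 72.7, 90.8 and 48.05 CPM against 151, 153 and 175 CPM (log2 change 1.18 ± 0.20 SE, adjusted p = 0.000221). SLC2A14 read 3.56, 6.51 and 3.31 CPM against 7.74, 11.7 and 8.46 CPM (log2 change 1.06 ± 0.30 SE, adjusted p = 0.0173). TIGAR read 4.55, 6.03 and 2.13 CPM against 8.61, 7.94 and 6.64 CPM (log2 change 0.87 ± 0.30 SE, adjusted p = 0.0479). PDK2 also rose (0.72), and none of these 4 had overlapping groups.

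Several of these calls lay near the threshold and missed it when a culture was left out. TIGAR lost its call without any of 5 cultures, and without hBMSC-CM vehicle replicate 3, its lowest library, its change was 0.54 (adjusted p = 0.302). PGAM1 lost its call without any of 5 cultures, with -0.50 (adjusted p = 0.195) without vehicle replicate 1. SLC2A14 lost its call without quizartinib replicate 2 (0.86, adjusted p = 0.108), vehicle replicate 1 (0.92, adjusted p = 0.0805) or vehicle replicate 3 (0.88, adjusted p = 0.116). SLC16A1 missed the threshold without quizartinib replicate 1 or 3 or vehicle replicate 2, at log2 changes of -0.91 to -0.87 (adjusted p 0.0651 to 0.0781). PDK2 missed it without quizartinib replicate 1 or vehicle replicate 2 or 3, at 0.61 to 0.70 (adjusted p 0.0542 to 0.0856). LDHA, ENO1, GPI, RPIA and PFKFB3 kept their calls without any of the 6 cultures in turn. Other settings moved calls too. TIGAR missed the threshold with no filter (adjusted p = 0.204), library size only (0.0628) and the compared libraries alone (0.168). PGAM1 missed it with no filter (adjusted p = 0.0778) and the compared libraries alone (0.0875). SLC2A14 missed it with the compared libraries alone (adjusted p = 0.0792) and PDK2 with no filter (adjusted p = 0.0641).

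The remaining members in hBMSC-CM did not pass. PGK1 read 369, 338 and 212 CPM against 206, 223 and 185 CPM, overlapping through vehicle replicate 3 (-0.58 ± 0.26 SE, adjusted p = 0.142). PKM read 1891, 1851 and 1497 CPM against 1270.4, 1254 and 1090.1 CPM (-0.54 ± 0.25 SE, adjusted p = 0.155). PFKP read 134, 114 and 80.9 CPM against 69.3, 64.9 and 77.1 CPM (-0.64 ± 0.22 SE, adjusted p = 0.0564). The groups of PKM and PFKP did not overlap. SLC2A1 read 50.9, 41.3 and 33.6 CPM against 56.6, 49.2 and 52.6 CPM, and SLC2A3 96.8, 68.5 and 80.97 CPM against 108, 73.4 and 147 CPM. Neither transporter passed the test here, with log2 changes of 0.33 and 0.42 (adjusted p = 0.313 and 0.426). HK2 read 73.4, 71.95 and 52.01 CPM against 45.7, 64.1 and 68.5 CPM and ALDOC 50.3, 62.3 and 54.1 CPM against 27.2, 40.5 and 44.7 CPM. LDHB read 15.5, 24.97 and 47.9 CPM against 11.7, 17.2 and 19.4 CPM, PDK1 10.97, 9.19 and 12.3 CPM against 5.20, 6.23 and 14.8 CPM, and TKT 893, 922 and 976 CPM against 913, 784 and 876 CPM. ALDOC was lower in every quizartinib culture and the other 4 overlapped, and none of these 5 passed the test. With the block within each fraction, 16 members were called (5 up, 11 down) beside 29.4% of all genes (13.8% up, 15.6% down), among them PFKP at -0.63 ± 0.18 (SE, adjusted p = 0.0085), PGK1 at -0.55 ± 0.16 (SE, adjusted p = 0.0102), PKM at -0.53 ± 0.16 (SE, adjusted p = 0.00896), TPI1 at -0.76 ± 0.17 (SE, adjusted p = 0.000816) and LDHB at -0.81 ± 0.23 (SE, adjusted p = 0.00636) on the log2 scale, all lower, and PGD, which was higher at 0.49 ± 0.15 (SE, adjusted p = 0.0153).

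The difference between media in the quizartinib effect was then tested itself, as the change in hBMSC-CM minus the change in RPMI. It was called for 3 of 33 members (9.09%) beside 1.96% of all genes (1.79% positive, 0.178% negative). For LDHA the difference was 1.42 ± 0.31 (SE, adjusted p = 0.00753) on the log2 scale, a smaller fall in hBMSC-CM. For SLC2A3 it was 1.90 ± 0.45 (SE, adjusted p = 0.0144), a fall in RPMI and no called change in hBMSC-CM. For SLC2A14 it was -2.32 ± 0.43 (SE, adjusted p = 0.00132), a rise in both media that was smaller in hBMSC-CM. The SLC2A3 difference missed the threshold without hBMSC-CM vehicle replicate 2, RPMI quizartinib replicate 1 or RPMI vehicle replicate 1 (adjusted p 0.0509 to 0.0609), while LDHA and SLC2A14 kept theirs without any of the 12 cultures. SLC16A1 (1.39 ± 0.41 SE, adjusted p = 0.0707) and ENO1 (1.02 ± 0.29 SE, adjusted p = 0.0546) lay just outside. Of the 33 members, 27 had a positive difference, with a median of 0.49 against -0.037 for all genes. With the block within each fraction 10 members were called beside 6.77% of all genes (5.13% positive, 1.64% negative), the further 7 being SLC16A1 at 1.39 ± 0.26 (SE, adjusted p = 0.000425), ENO1 at 1.04 ± 0.21 (SE, adjusted p = 0.00102), PKM at 0.97 ± 0.22 (SE, adjusted p = 0.00358), PFKP at 0.94 ± 0.26 (SE, adjusted p = 0.0177), PGK1 at 0.92 ± 0.23 (SE, adjusted p = 0.00864), PGAM1 at 0.88 ± 0.21 (SE, adjusted p = 0.00497) and TIGAR at 1.21 ± 0.37 (SE, adjusted p = 0.0372), all positive.

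Set side by side without drug, hBMSC-CM and RPMI differed for 4 members, all higher in hBMSC-CM (12.1% of members beside 1.51% of all genes, 1.3% higher and 0.209% lower). HK3, a hexokinase of blood cells, read 1.97, 2.79 and 4.67 CPM in RPMI vehicle and 6.07, 13.04 and 18.1 CPM in hBMSC-CM vehicle (log2 change 1.99 ± 0.52 SE, adjusted p = 0.0383). PFKFB4 read 13.5, 11.1 and 17.6 CPM in hBMSC-CM vehicle, against the RPMI values above (log2 change 1.66 ± 0.43 SE, adjusted p = 0.0327). SLC2A3 (log2 change 1.34 ± 0.32 SE, adjusted p = 0.0174) and PFKFB3 (log2 change 1.04 ± 0.20 SE, adjusted p = 0.00228) were likewise higher in every hBMSC-CM vehicle culture than in any RPMI vehicle culture, from the values given above. These calls lay near the threshold. HK3 missed it with limma voom (adjusted p = 0.0714), with library size alone (0.0522) and in a fit of the compared libraries alone (0.0973). PFKFB4 missed it with limma voom (adjusted p = 0.0748) and PFKFB3 with the compared libraries alone (adjusted p = 0.0917). With a culture left out, HK3 and PFKFB4 missed it in each of 5 cases, at log2 changes of 1.63 to 2.38 and 1.49 to 1.83 (adjusted p 0.0535 to 0.308 and 0.0669 to 0.25), SLC2A3 without replicate 2 or 3 of RPMI vehicle or replicate 1 of hBMSC-CM vehicle (adjusted p 0.0934 to 0.135), and PFKFB3 without hBMSC-CM vehicle replicate 2 (adjusted p = 0.0556). With the block within each fraction 7 members were called beside 4.52% of all genes (3.42% higher, 1.11% lower), adding SLC2A1 at 0.67 ± 0.16 (SE, adjusted p = 0.00713), SLC2A14 at 0.85 ± 0.23 (SE, adjusted p = 0.0242) and SLC16A3 at 0.66 ± 0.17 (SE, adjusted p = 0.0147), each higher in hBMSC-CM.

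Under quizartinib the media parted more widely: 10 members were higher in hBMSC-CM and 2 lower (36.4% of members beside 8.16% of all genes, 6.11% higher and 2.05% lower). The median member was 0.56 higher on the log2 scale, against -0.028 for all genes. SLC2A3, at the values given above, was 9.48-fold higher (log2 change 3.24 ± 0.34 SE, adjusted p = 1.69e-08). Summed with SLC2A14, the means under quizartinib were 36.7 CPM in RPMI and 119 CPM in hBMSC-CM, a narrower gap. HK3 read 0.878, 2.10 and 3.44 CPM in RPMI and 9.06, 19.6 and 29.4 CPM in hBMSC-CM under the drug, 9.04-fold higher (log2 change 3.18 ± 0.54 SE, adjusted p = 8.13e-05). PFKFB3 was 2.89-fold higher (log2 change 1.53 ± 0.21 SE, adjusted p = 1.77e-06). All 3 rises were without overlap. SLC2A14 was 2.70-fold lower (log2 change -1.43 ± 0.30 SE, adjusted p = 0.00105), and PDK2, at 56, 53.1 and 43.7 CPM in RPMI and 35.7, 28.3 and 29.3 CPM in hBMSC-CM, 1.64-fold lower (log2 change -0.71 ± 0.21 SE, adjusted p = 0.0256). The other members higher in hBMSC-CM were SLC2A1 (1.31), PKM (1.31), SLC16A3 (1.28), LDHA (1.24), SLC16A1 (1.07), ENO1 (0.78) and PGD (0.77), and PGD, the NADPH-making 6-phosphogluconate dehydrogenase, was the pentose phosphate gene among them. This comparison shares its cultures with those above and is not separate evidence. With no filter on low counts PDK2 (adjusted p = 0.0957) and PGD (adjusted p = 0.0537) missed the threshold. PDK2, PGD, SLC16A1, ENO1 and SLC16A3 missed the threshold without 1 or more single cultures: PDK2 without replicate 1 or 2 of RPMI quizartinib or replicate 2 or 3 of hBMSC-CM quizartinib (adjusted p 0.0598 to 0.121), PGD and SLC16A1 without replicate 3 of RPMI quizartinib or replicate 2 of hBMSC-CM quizartinib (adjusted p 0.0536 to 0.0679 and 0.0769 to 0.0973), ENO1 without RPMI quizartinib replicate 3 (adjusted p = 0.0614) and SLC16A3 without RPMI quizartinib replicate 1 (adjusted p = 0.0847). With the block 18 members were called beside 17.6% of all genes (11.4% higher, 6.23% lower): HK1, GPI, PFKP, TPI1, PGK1 and PGAM1 passed too, all higher in hBMSC-CM, with PFKP at 0.61 ± 0.18 (SE, adjusted p = 0.0163) and PGK1 at 0.60 ± 0.16 (SE, adjusted p = 0.00714).

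**Figure D3:**
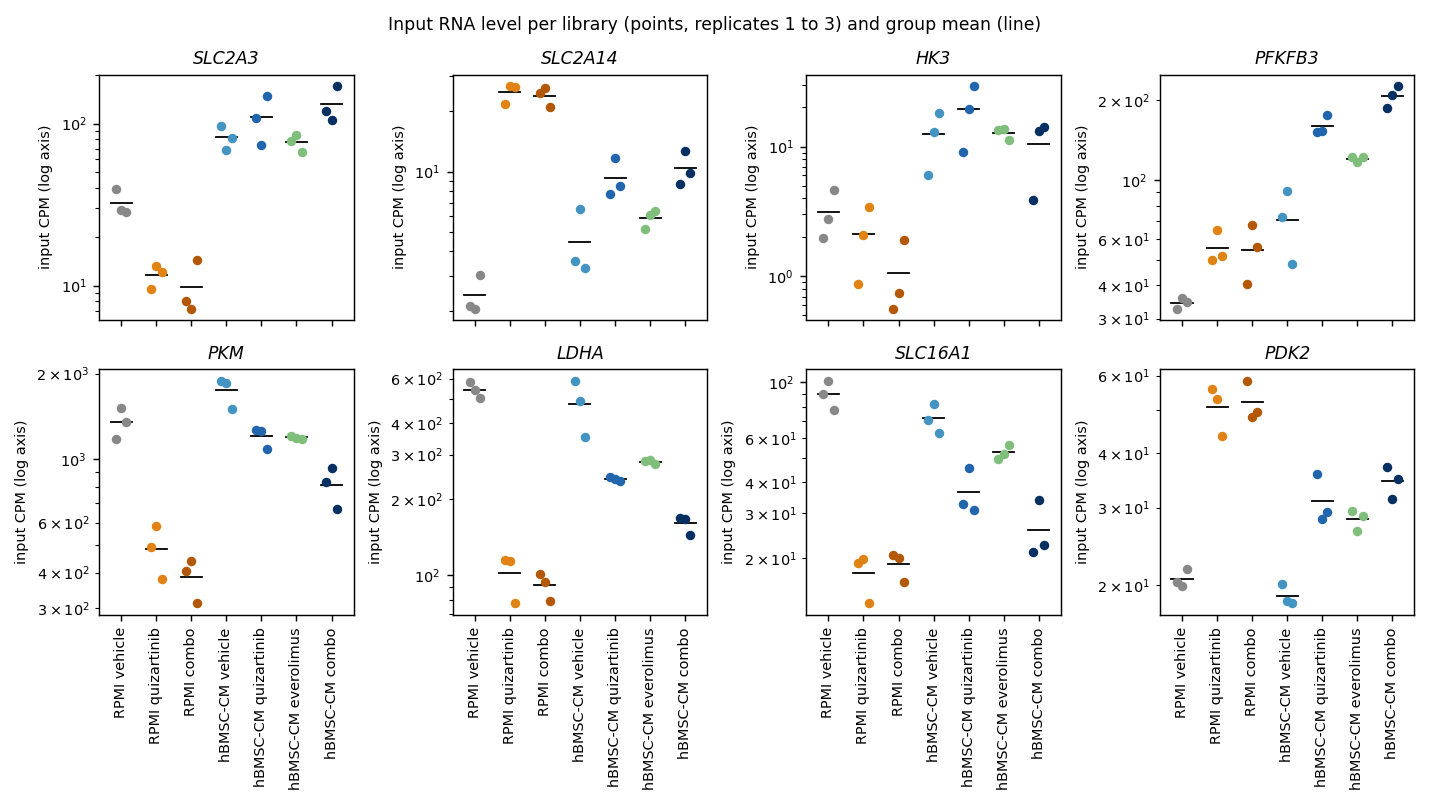
Input level in CPM (log axis) of 8 members in each of the 21 input libraries, as points for replicates 1 to 3 with a line at the group mean, by condition. LDHA runs from 77.3 to 115 CPM in RPMI quizartinib and from 235 to 246 CPM in hBMSC-CM quizartinib, and SLC2A14 is highest in the 2 RPMI drug groups.

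Adding everolimus to quizartinib asks what mTORC1 inhibition does on top of FLT3 inhibition. In RPMI no member passed the test in edgeR, limma voom or DESeq2, none had an unadjusted p under 0.05, and 0.00773% of all genes passed. LDHA read 101, 94.1 and 79.1 CPM in RPMI combo, SLC16A1 20.5, 19.97 and 15.97 CPM and PKM 405, 438 and 312 CPM. These stood near the quizartinib values, with log2 differences of -0.16, 0.12 and -0.33. SLC2A1 read 20.8, 20.95 and 17.1 CPM, SLC2A3 8.01, 7.21 and 14.3 CPM and SLC2A14 24.6, 26.3 and 21.1 CPM in RPMI combo. HK2 read 37.1, 50.2 and 47.3 CPM, PFKP 36.99, 35.5 and 35.5 CPM, ALDOC 26.5, 36.2 and 23.3 CPM and PGK1 156, 132 and 89.1 CPM. Of these 7, PFKP was lower in every combo culture than under quizartinib alone and the other 6 overlapped. Within same-numbered pairs HK2, ALDOC and PGK1 were also lower in 3 of 3, as was PKM, and SLC16A1 was higher in 3 of 3. How many of all genes kept such an order was not counted, so these orders are description and not called changes. LDHB read 16.8, 18.1 and 19.7 CPM, PFKFB3 40.7, 67.5 and 55.7 CPM, TIGAR 7.13, 7.61 and 6.86 CPM, PDK1 3.05, 7.05 and 6.93 CPM and TKT 952, 759.8 and 852 CPM. TIGAR was higher in every combo culture (log2 0.45) and the other 4 overlapped, with LDHB higher in 3 of 3 pairs. No member passed with the block within each fraction either.

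In hBMSC-CM no member passed for combo against quizartinib in edgeR, limma voom or DESeq2, 6 had an unadjusted p under 0.05, and 0.24% of all genes passed. With the block within each fraction 3 passed beside 2.94% of all genes (0.247% higher, 2.69% lower), all lower under combo. LDHA read 169, 168 and 145 CPM under combo (-0.59 ± 0.16 SE, adjusted p = 0.0282 with the block). PKM read 830.3, 935 and 668 CPM (-0.58 ± 0.16 SE, adjusted p = 0.0291) and ALDOC 18.7, 24.3 and 21.2 CPM (-0.80 ± 0.23 SE, adjusted p = 0.0493). In all 3 genes every combo culture lay below every quizartinib culture in the same medium. SLC2A1 read 53.3, 57.5 and 45.8 CPM under combo, SLC2A3 120.0, 106 and 171 CPM and SLC2A14 8.72, 12.6 and 9.79 CPM. HK2 read 32.2, 57.02 and 48.3 CPM, PFKP 45.7, 53.1 and 54.7 CPM, PGK1 184, 208 and 143 CPM and SLC16A1 21, 34.1 and 22.5 CPM. Among these 7, PFKP was lower in every combo culture and the other 6 overlapped. Within same-numbered pairs HK2, PGK1 and SLC16A1 were lower under combo in 3 of 3 and SLC2A3 and SLC2A14 higher in 3 of 3, and none of these passed with the block. Here too the share of all genes with such an order was not counted. LDHB read 12.1, 13.1 and 19.4 CPM, PFKFB3 187, 209 and 227 CPM, TIGAR 8.34, 10.4 and 4.53 CPM, PDK1 6.08, 5.27 and 9.50 CPM and TKT 973, 807 and 868 CPM. PFKFB3 was higher in every combo culture than under quizartinib (log2 0.38, adjusted p = 0.91).

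For everolimus alone against vehicle in hBMSC-CM no member passed in edgeR, 5 had an unadjusted p under 0.05, and 0.41% of all genes passed. DESeq2 called LDHA and PFKFB3 beside 1.27% of all genes, and limma voom PFKFB3 beside 0.811%. PFKFB3 read 122, 117 and 122 CPM under everolimus, above every vehicle culture (0.77 ± 0.20 SE, adjusted p = 0.0752), and LDHA read 284, 286 and 275 CPM, below every vehicle culture (-0.76 ± 0.22 SE, adjusted p = 0.124). PKM read 1209.7, 1191 and 1181 CPM and ALDOC 34.4, 37.8 and 39.4 CPM, both also below every vehicle culture (log2 -0.55 and -0.58). The remaining fixed members were SLC2A1 at 42.5, 44.8 and 41.9 CPM, SLC2A3 at 78.2, 85.2 and 66.8 CPM, SLC2A14 at 5.16, 6.04 and 6.38 CPM, HK2 at 62.2, 61.2 and 59.3 CPM and PFKP at 89.6, 81.1 and 85.9 CPM. PGK1 read 254, 236 and 233 CPM, LDHB 20.1, 19.9 and 19.99 CPM, SLC16A1 49.6, 51.99 and 56.2 CPM, TIGAR 6.02, 7.48 and 5.81 CPM, PDK1 7.64, 10.8 and 8.79 CPM and TKT 987, 978 and 969 CPM. Of these, SLC16A1 was lower in every everolimus culture than under vehicle (log2 -0.45) and the others overlapped. Same-numbered cultures did not deviate together here, so the numbers gave no pairing for this comparison; a block on them within each fraction called 4 members beside 5.22% of all genes (2.89% higher, 2.33% lower).

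The heavy polysome libraries hold messages carried by several ribosomes, and their share there relative to input was set out over all 7 conditions, which share this estimate. In the test of the mean polysome level against the mean input level, 26 members were higher in polysomes and 4 lower. Over all genes 42.1% were higher and 44.1% lower, and the median member differed by 1.16 on the log2 scale against -0.027 for all genes. With library size alone and no composition factors the median of all genes was -0.43, and 23 members were higher and 8 lower, beside 31.4% and 54.6% of all genes, with SLC2A3 and LDHA no longer called and SLC2A14, HK2 and PDK3 lower. These values are relative to the other messages of a library and do not count ribosomes on a message.

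PFKL, the liver phosphofructokinase, had the lowest, median and highest levels of 104, 164 and 219.6 CPM in input against 350.5, 782 and 1153 CPM in heavy polysomes over the 21 cultures. It was higher in polysomes in all 21 cultures (log2 change 2.13 ± 0.14 SE, adjusted p = 3.9e-16), and so were the next of the ranking. ALDOA ran 2.26, 9.53 and 16.2 CPM in input against 23.3, 36.96 and 64.3 CPM in heavy polysomes (log2 change 2.07 ± 0.19 SE, adjusted p = 2.75e-12). PGAM1 ran 40.9, 111 and 225 CPM in input against 188, 405 and 756 CPM in heavy polysomes (log2 change 1.85 ± 0.09 SE, adjusted p = 5.32e-20). These 3 lead the set, though the levels of ALDOA and PGAM1 are uncertain through the shared sequence described above. The next examples span the chain from uptake to pyruvate. PGK1 ran 89.1, 208 and 392 CPM in input against 377, 634 and 1481 CPM in heavy polysomes. PKM ran 312, 1181 and 1891 CPM in input against 1036, 3006 and 6624 CPM in heavy polysomes. SLC2A1 ran 17.1, 41.3 and 57.5 CPM in input against 49.9, 120.1 and 182 CPM in heavy polysomes. For these too the polysome value was above the input value in all 21 cultures, with log2 differences of 1.78, 1.62 and 1.62. PFKP, ALDOC, PFKFB3 and TKT followed with 1.09, 1.50, 1.20 and 1.16, each above input in all 21 cultures. LDHA was above input in 18 of 21 cultures (log2 change 0.51 ± 0.08 SE, adjusted p = 8.53e-07), and SLC2A3 in 15 of 21 (log2 change 0.25 ± 0.12 SE, adjusted p = 0.0471).

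SLC16A1 stood at the other end. It ran 13.1, 34.1 and 102 CPM in input against 9.05, 21.5 and 55.3 CPM in heavy polysomes, and its polysome value was above the input value in 3 of 21 cultures (log2 change -0.73 ± 0.11 SE, adjusted p = 1.89e-07). PDK1 ran 3.05, 7.64 and 14.8 CPM in input against 2.09, 6.05 and 11.4 CPM in heavy polysomes (log2 change -0.43 ± 0.16 SE, adjusted p = 0.0134). LDHB ran 11.7, 19.4 and 47.9 CPM in input against 6.43, 16.4 and 28.2 CPM in heavy polysomes (log2 change -0.37 ± 0.13 SE, adjusted p = 0.00837). Both were lower in polysomes, though the ranges over the cultures overlap widely, and so was TIGAR (log2 change -0.37 ± 0.11 SE, adjusted p = 0.00255). The levels of LDHB and TIGAR are uncertain through shared sequence. HK2 ran 32.2, 59.3 and 87.01 CPM in input against 21.7, 44.5 and 82.1 CPM in heavy polysomes and did not pass (-0.29 ± 0.14 SE, adjusted p = 0.0522), nor did SLC2A14 (0.06) or PDK3 (-0.13). The pairs of related genes thus sat apart: SLC16A3, the MCT4 lactate exporter, was 1.74 higher in polysomes and SLC16A1 -0.73, and PDK2 was 1.61 higher and PDK1 -0.43 on the log2 scale; these differences between genes had no test of their own.

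**Figure D4:**
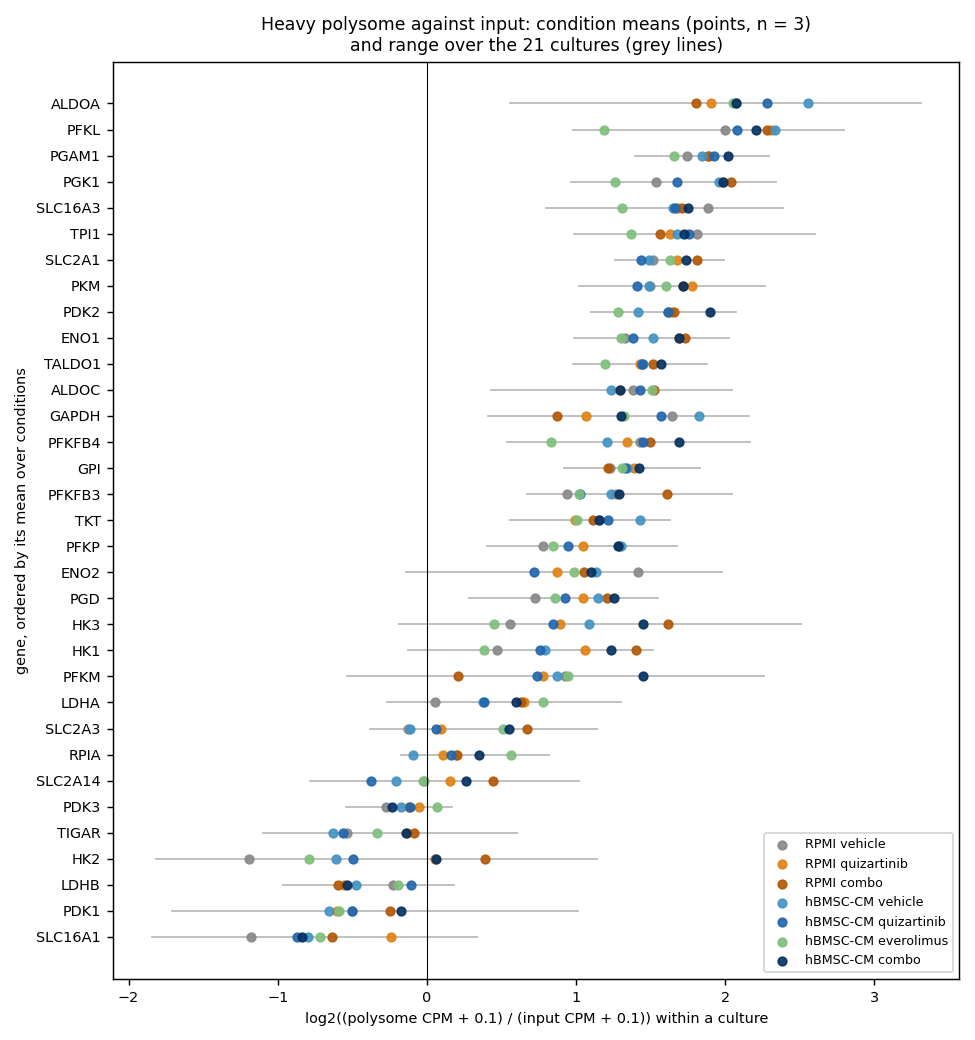
Log2 of the heavy polysome level over the input level of the same culture (0.1 CPM added to both) for each tested member, ordered by its mean. Coloured points are the means of 3 cultures in each of the 7 conditions and grey lines the range over the 21 cultures; ALDOA and PFKL lie right of 0 in every culture and the condition means of SLC16A1, PDK1 and LDHB lie left of 0.

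Whether a treatment moved a message relative to others was tested as the change in polysomes minus the change in input. Each library was scaled to its own size, so a loss from polysomes shared by all messages is not measured here. The paper reports that quizartinib lowered RNA yields more in heavy polysomes than in input. In none of the 8 comparisons did a member pass in edgeR, limma voom or DESeq2. For quizartinib in RPMI 3 members had an unadjusted p under 0.05 and 1.55% of all genes passed. For everolimus in hBMSC-CM 2 members did, for the other 6 comparisons none, and in these 7 comparisons 0% of all genes passed, with 93 to 624 genes at an unadjusted p under 0.05. With the block within each fraction 2 members passed for quizartinib in RPMI beside 11.7% of all genes (7.76% positive, 3.93% negative), and neither passed with a block per culture (adjusted p = 0.324 for HK2 and 0.302 for SLC16A1) or with a block shared by both fractions (adjusted p = 0.151 and 0.111). HK2 read 53.3, 24.7 and 32.7 CPM in polysomes of RPMI vehicle and 67.5, 34.02 and 66.02 CPM under quizartinib, while its input values were lower under the drug. Its change in polysomes was 1.22 ± 0.33 (SE, adjusted p = 0.0147) above that in input with the block, and 1.23 ± 0.53 (SE, adjusted p = 0.244) without it. SLC16A1 read 52.8, 28.2 and 40.8 CPM against 19.9, 9.05 and 16.6 CPM in polysomes, a smaller drop than in input, with 0.95 ± 0.26 (SE, adjusted p = 0.0167) with the block and 0.95 ± 0.41 (SE, adjusted p = 0.246) without it. Relative to the other messages of a library, LDHA and ENO1, which fell in input, were also lower in polysomes, while HK2 was not. LDHA read 484, 545 and 666 CPM in polysomes of RPMI vehicle and 156, 154 and 164 CPM under quizartinib, and ENO1 12597, 7589.8 and 7279 CPM against 4102, 3194 and 2556 CPM. PFKL in polysomes read 1105, 1153 and 472 CPM in hBMSC-CM vehicle and 509.9, 495 and 468 CPM under everolimus, with the fraction difference at -1.24 ± 0.51 (SE, adjusted p = 1), the lowest of any member in that comparison. In PFKL replicate 3 was the lowest polysome library in each of the 7 conditions.

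Within families of related enzymes, shares of the summed input level per kilobase were set out as a description, since the members were chosen with results known. These shares rest on canonical transcript lengths, 14072 bases for PDK1 against 3364 for PDK2 and 1741 for PDK3. Which transcripts these cells use was not examined. Among phosphofructokinases PFKL held 54.9% ± 4.26 (SD, n = 3) in RPMI vehicle and 70.2% ± 4.21 under quizartinib, with PFKP going from 44.8% ± 4.27 to 28.7% ± 4.09 and PFKM at most 1.72% ± 1.18. The shares of PFKP did not overlap between those groups. In hBMSC-CM PFKP went from 41.5% ± 5.49 to 31.4% ± 4.42. Among hexokinases HK3 held 4.17% ± 1.70 in RPMI vehicle, 4.39% ± 2.92 in RPMI quizartinib, 15.9% ± 9.99 in hBMSC-CM vehicle and 22.8% ± 10.5 in hBMSC-CM quizartinib, and the spread in the last pair was wide. Among the lactate carriers SLC16A1 held 22.2% ± 1.90 in RPMI vehicle and 7.47% ± 1.77 under quizartinib, and 12.8% ± 2.24 and 6.50% ± 1.37 in hBMSC-CM. Among the PDK kinases PDK2 went from 40.8% ± 3.14 to 64.4% ± 0.668 in RPMI and from 36.4% ± 5.09 to 47.4% ± 2.27 in hBMSC-CM; PDK3 went from 54.5% ± 3.63 to 33.8% ± 1.12 in RPMI.

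**Figure D5:**
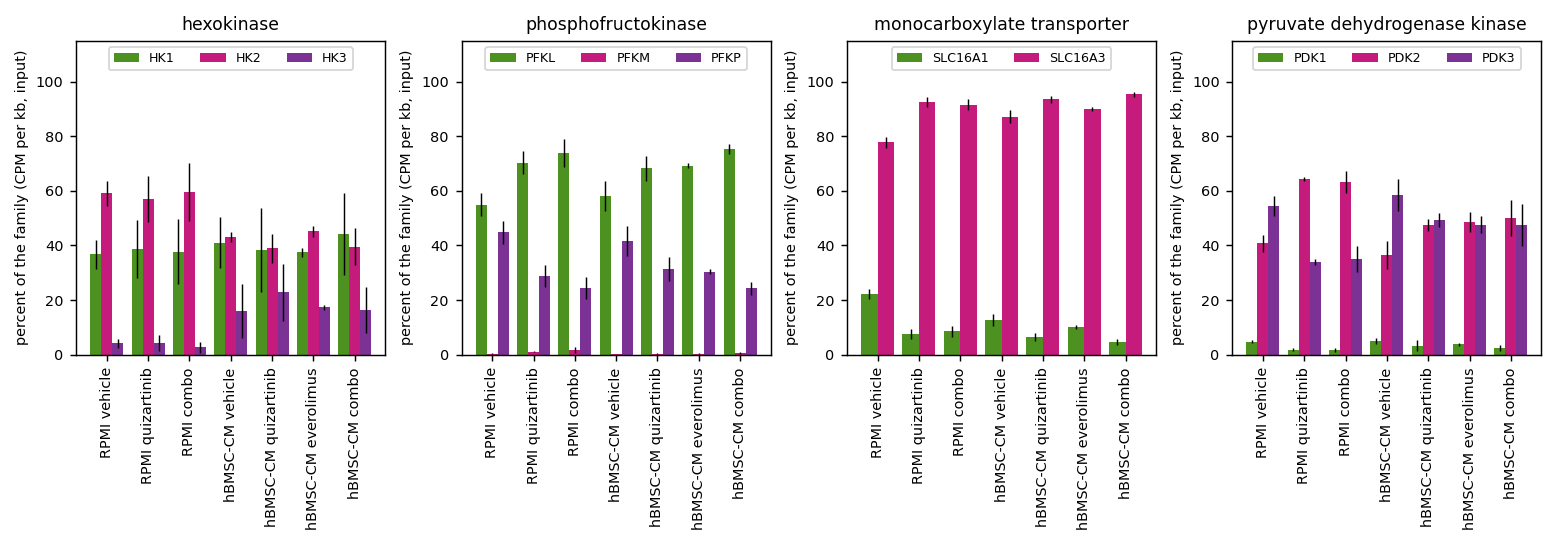
Share of each family's summed input level per kilobase of canonical transcript (percent, mean with 1 SD, 3 cultures per bar) held by each member in the 7 conditions. PFKP holds 44.8% ± 4.27 in RPMI vehicle and 28.7% ± 4.09 in RPMI quizartinib, and PDK2 40.8% ± 3.14 and 64.4% ± 0.668.

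A list of 43 other genes of these pathways, 31 of them tested, was read beside the members. Under quizartinib in RPMI 9 fell and 5 rose, beside 18% and 16.6% of all genes. In hBMSC-CM 4 fell and 2 rose, beside 6.84% and 5.46% of all genes. Among the pentose phosphate genes PRPS1 and PRPS2, the synthetases that turn ribose 5-phosphate into the precursor of nucleotides, fell in RPMI. PRPS1 read 60.7, 45.2 and 49.7 CPM in RPMI vehicle and 14.1, 14.1 and 9.52 CPM under quizartinib (log2 change -2.05 ± 0.19 SE, adjusted p = 1.95e-10), and its fall was smaller in hBMSC-CM (difference between media 1.14 ± 0.26 SE, adjusted p = 0.00982). PRPS2 changed by -1.46 and RPE, ribulose phosphate epimerase, by -0.68. TKTL1, a relative of transketolase, rose from 4.52, 7.09 and 6.53 CPM to 24.7, 23.1 and 22.6 CPM (log2 change 1.96 ± 0.29 SE, adjusted p = 1.63e-06). Of the genes that bring pyruvate into mitochondrial metabolism, PDHA1 (-1.10) and DLAT (-1.53), subunits of pyruvate dehydrogenase, the carrier MPC1 (-0.62) and the phosphatase PDP2 (-1.27) fell and the phosphatase PDP1 (0.70) rose. G6PC3 (-0.95) and PGM2 (-0.82) fell, and LDHD (2.40), SLC2A6 (1.95) and TXNIP (1.76), which restrains glucose uptake, rose. In hBMSC-CM quizartinib moved PRPS1 (-0.90), PDHA1 (-0.73), DLAT (-0.89), MPC1 (-0.76), TKTL1 (1.32) and LDHD (1.32) in the same directions.

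Between media, SLC2A5, the fructose transporter, was the 1 gene of this list called between vehicle cultures (1.51% of all genes were), at 25.4, 33.7 and 23.9 CPM in RPMI against 80.9, 64.1 and 60.3 CPM (log2 change 1.31 ± 0.23 SE, adjusted p = 0.000427). Under quizartinib SLC2A5 (1.26), PRPS1 (0.81), PRPS2 (0.75) and PDP2 (1.15) were higher in hBMSC-CM and TKTL1 (-0.97) lower, beside 6.11% and 2.05% of all genes. None of the 31 passed for combo, for everolimus or in any comparison of polysome minus input in edgeR.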

How the data were processed

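Poly(A) RNA of the input and of the heavy polysome fraction was sequenced from 21 cultures. The deposited counts are whole-number read counts per gene that the authors made by trimming with BBDuk and by alignment to hg38 (Ensembl) and gene counting with STAR 2.6.0a; the strand setting of the counting is not given in the sources used here. No rows lacked a gene name, and rows of 1 name were summed.

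Genes with a mean of at least 1 count and 1 CPM were kept (12939, holding 99.8% of counts). CPM values were scaled by TMM factors. One fit of 14 group means used edgeR's quasi-likelihood test (edgeR 4.0.16, limma 3.58.1, R 4.3.3), with Benjamini-Hochberg adjustment over all genes kept and a threshold of 0.05; SE is the log2 change divided by the square root of F. The prior count was 2. Coordinates and lengths are from GENCODE release 44 (GRCh38), promoters from RefSeq. The scripts were tested on simulated data. Total counts per library are in the report, and precision is set mainly by the spread between replicates, estimated per gene over all 14 groups together.

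The members, lists and tests were chosen with earlier results of these data known. All 34 members were counted. Per-library values are given for 15 fixed members and for the 3 largest rises and falls called in each comparison, and other pathway genes are named where called. How many of all genes had groups without overlap was not counted, so such statements describe a member and are not tests. PGLS was not analysed here. Deviations of same-numbered libraries from their group means correlated at 0.156 to 0.715 within a fraction in the comparisons without everolimus alone. The replicate number was therefore taken as pairing there, but only in the alternative fits with a block. The main fit held no block, so its adjusted p-values ignore this pairing. For everolimus against vehicle the lowest correlation was -0.0898. The replicate blocks were still fitted to all libraries, so the everolimus libraries, whose numbers do not pair, also entered the calls with a block. Between input and polysome libraries of the same number the correlation was -0.0438 to 0.303, so matching them by culture rests on the labels. Alternatives were no filter, limma voom, DESeq2 1.42.0, RLE factors, library size only, replicate blocks, the compared libraries alone and each culture left out. A block per culture was planned for polysome against input, and was added after seeing the data for polysome minus input.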

Additional observations from a re-analysis of the deposited data

Results flagged for a closer look

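For 3 members the effect of quizartinib differed between media by the test of the difference itself (edgeR's quasi-likelihood test, adjusted over all genes). The log2 change in hBMSC-CM minus that in RPMI was 1.42 for LDHA, which fell in both media and by less in hBMSC-CM. It was 1.90 for SLC2A3, lower under quizartinib in every RPMI culture and not called in hBMSC-CM. It was -2.32 for SLC2A14, higher under quizartinib in every culture of both media and by less in hBMSC-CM. The counts of the last pair rest on how reads common to both genes were assigned. Summed over both genes, the vehicle and quizartinib levels overlapped in each medium.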

How the results depend on the processing

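Over 50 member results and 802 alternatives, 741 kept their direction and their side of the threshold, 61 kept their direction and missed the threshold, and none reversed. These results are members already called in the main fit, and for polysome against input only the 3 largest rises and 3 largest falls. SLC2A3 and LDHA, which lost their polysome call with library size alone, are thus not among them. The tally describes selected results and not the members as a whole. The number of members called moved beyond 1.5 times as follows. Shares of all genes called are in brackets, and were not set out for the shared block, the compared libraries alone or a culture left out. For quizartinib in hBMSC-CM it was 16 with the replicate block within each fraction (29.4%) and 6 to 9 with a culture left out, against 10 (12.3%). For the media under vehicle it was 2 with limma voom (1.32%) and 2 with the compared libraries alone, against 4 (1.51%). It was 7 with the replicate block within each fraction (4.52%) and 1 to 3 with a culture left out. For combo in hBMSC-CM it was 3 with the replicate block within each fraction (2.94%), against 0 (0.24%). For everolimus it was 1 with limma voom (0.811%), 2 with DESeq2 (1.27%) and 1 with the replicate block shared by both fractions, against 0 (0.41%). It was 4 with the block within each fraction (5.22%) and 0 to 1 with a culture left out. The 4 were PKM, LDHA, PFKFB3 and PDK2, in a comparison whose numbers do not pair the cultures. For the difference between media it was 5 with limma voom (2.16%), 5 with DESeq2 (2.74%) and 8 with the shared replicate block, against 3 (1.96%). It was 10 with the block within each fraction (6.77%) and 5 with the compared libraries alone. The range of 2 to 4 with a culture left out did not go beyond 1.5 times. For polysome minus input under quizartinib in RPMI it was 2 with the replicate block within each fraction (11.7%), against 0 (1.55%). With a culture left out the count was 14 to 16 for quizartinib in RPMI, 9 to 12 for the media under quizartinib and 29 to 31 for polysome against input. In the comparisons of polysome minus input, to which it was added after seeing the data, the replicate block per culture called 0 members. The causes were not tested. Of the tested members PFKM alone had group means under 1 CPM in input, in hBMSC-CM vehicle and quizartinib, so depth bears most on its values there.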
